A study of Homo sapiens with 12 samples.

Results

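The response of 2 triple-negative breast cancer (TNBC) lines, HCC70 and MDA-MB468, to the RORγ antagonist XY018 was compared gene by gene, to see which changes the lines shared, which appeared in 1 line, and which ran in opposite directions. For each gene the log2 ratio of XY018 at 2.5 μM over vehicle was computed within each line, with 0.1 added to every FPKM value, and the MDA-MB468 ratio was subtracted from the HCC70 ratio. FPKM scales the fragments of a gene to its transcript length and to the fragments mapped in the library. A gene entered the comparison when it was listed for both lines and stood at 1 FPKM or above in at least 1 library of each pair, which held for 10856 of the 18324 genes listed for either line. The lowest gene inside this limit, ADAMTS4, stood at 1.00 FPKM and the highest outside it, AP3M2, at 0.99 FPKM. A gene is called lower or higher here when its ratio reached 1.5-fold.

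The comparison rests on 4 of the 12 RNA-seq libraries, each from cells treated for 24 h: HCC70 with vehicle, HCC70 with XY018 at 2.5 μM, MDA-MB468 with vehicle and MDA-MB468 with XY018 at 2.5 μM. Libraries at 1.25 μM of XY018, which share the vehicles, are given beside them, as are counts with atorvastatin (ATV), a statin, and 1 MDA-MB468 pair with the RORγ antagonist GSK805 at 2.5 μM and its own vehicle. Both lines are established human cell lines, grown with serum. The labels give RPMI for both, with insulin for MDA-MB468 alone, whereas the methods give DMEM for MDA-MB468, and which medium these cells had was not settled. Each condition is 1 library, so differences could not be set against a spread between replicates and no test was run. The libraries of each line were normalized in a table of their own, so the line, its medium and its experiment cannot be told apart.

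RORγ is a nuclear receptor that binds response elements in the genome and, as RORγt, drives Th17 cells. Cholesterol synthesis is governed mainly by the transcription factor SREBP2, which is released from the endoplasmic reticulum (ER) when sterols are low, and LXR, a receptor for oxysterols, raises the sterol exporters ABCA1 and ABCG1 when sterols are high. TNBC cells lack the oestrogen and progesterone receptors and HER2 amplification, and many keep basal keratins.

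The labelled lines showed the markers of epithelial cells. EPCAM stood at 69.1 and 112 FPKM in the HCC70 and MDA-MB468 vehicle libraries and KRT5 at 659.8 and 112 FPKM, whereas ESR1 stood at 0.56 and 0.48 FPKM. Depth, estimated from the spacing of low FPKM values, was 9550000 and 9980000 fragments in the HCC70 vehicle and 2.5 μM libraries and 19700000 and 19000000 in those of MDA-MB468. Intervals below come from fragment numbers estimated in this way at the 95% level and cover counting error only. Those of ratios leave out the 0.1 added to FPKM, so at low levels a ratio can lie near the edge of its interval. The MTRNR2L genes, copies of a mitochondrial sequence, took 6.57% of the summed FPKM in HCC70 vehicle and 6.94% with XY018, against 1.91% and 4.28% in MDA-MB468. Of 5 markers of other cell types, VIM, COL1A1, PTPRC and CD68 stood higher with XY018 in MDA-MB468, with CD68 at 4.42 and 16.4 FPKM, and PECAM1 stood at 0.21 and 0.11 FPKM. In HCC70 CD68 stood at 76.6 and 90.0 FPKM and the other 4 markers between 0.22 and 4.45 FPKM in both libraries. What part these shifts have in the results was not tested.

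XY018 moved far more genes in MDA-MB468 than in HCC70. In HCC70, 272 genes (2.51%) were lower and 208 (1.92%) higher, while in MDA-MB468, 1446 (13.3%) were lower and 1384 (12.7%) higher. The interquartile range of the log2 ratios over all 10856 genes was 0.265 in HCC70 and 0.665 in MDA-MB468, and their medians were −0.02 and 0.00. At 1.25 μM, against the same vehicles, 224 genes were lower and 140 higher in HCC70, and 814 were lower and 940 higher in MDA-MB468. With ATV, 107 and 170 genes were lower and higher in HCC70 and 70 and 103 in MDA-MB468.

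The genes lower in both lines included most of cholesterol synthesis, and those higher in both included stress genes. Both lines lowered 95 genes (0.875%), which is 34.9% of the genes lower in HCC70 and 6.57% of those lower in MDA-MB468. Both raised 56 genes (0.516%), 26.9% of those higher in HCC70 and 4.05% of those higher in MDA-MB468. These shares of the HCC70 genes stand beside 13.3% and 12.7% of all genes that were lower and higher in MDA-MB468. In opposite directions, 36 genes (0.332%) were higher in HCC70 and lower in MDA-MB468, and 49 (0.451%) were lower in HCC70 and higher in MDA-MB468, which is 17.3% and 18% of the HCC70 genes of those directions. The last genes inside and outside the shared lower group were S100A2 and NDUFC2-KCTD14, whose smaller log2 ratios were −0.585 and −0.583.

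A gene was taken as specific to a line when it passed 1.5-fold there and stayed within 1.2-fold in the other line. By this rule 70 genes (0.645%) were lower and 53 (0.488%) higher in HCC70 alone, and 970 (8.94%) were lower and 970 (8.94%) higher in MDA-MB468 alone. A further 464 genes passed 1.5-fold in 1 line and moved 1.2- to 1.5-fold the same way in the other, 311 moved that much the opposite way, and 7782 passed in neither line. By the difference of the ratios itself, 1442 genes (13.3%) lay at least 1.5-fold higher in HCC70 and 1604 (14.8%) at least 1.5-fold lower. Across the 10856 genes the log2 ratios of the 2 lines had a Pearson correlation of 0.122 (Spearman 0.105), against 0.814 (0.8) for their vehicle levels. In 3116 genes at 20 FPKM or above in both pairs, where counting error is smaller, it was 0.208 (0.192). Genes share their 4 libraries and are not independent replicates.

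**Figure D1:**
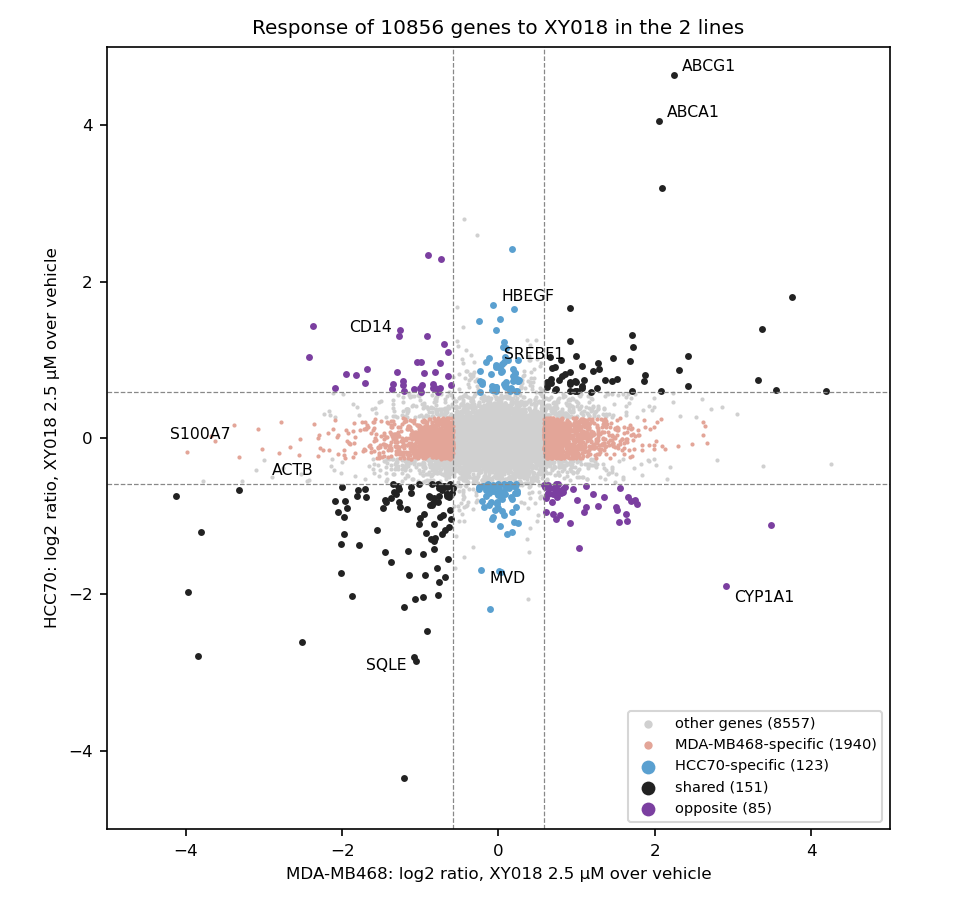
Each point is 1 of the 10856 genes, with the log2 ratio of XY018 at 2.5 μM over vehicle in MDA-MB468 on the x axis and in HCC70 on the y axis, and dashed lines at 1.5-fold. The cloud is wider along the MDA-MB468 axis, and 1 gene, SMN2, lies beyond the axes at 5.

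Cholesterol biosynthesis genes fell in both lines, and most of them fell further in HCC70. Of 21 genes of the pathway, all compared, 18 were lower in HCC70 and 17 in MDA-MB468, and 16 were lower in both. Among all 10856 genes 2.51% were lower in HCC70, 13.3% in MDA-MB468 and 0.875% in both. No gene of the list was higher in either line. The median log2 ratio was −1.46 in HCC70 and −0.83 in MDA-MB468, against −0.02 and 0.00 over all genes. The ratio was lower in HCC70 than in MDA-MB468 for 18 of the 21 genes, in 9 of them by at least 1.5-fold, and the median difference was −0.43 on the log2 scale against −0.03 over all genes. The list was known to be lower with XY018 before it was chosen, so its direction is no independent evidence.

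SQLE, the squalene epoxidase and a rate-limiting enzyme of the pathway, showed the widest gap among the shared genes of the list. In the vehicle, 1.25 μM and 2.5 μM libraries, SQLE was at 80.1, 18.04 and 11 FPKM in HCC70 and at 76.5, 45.4 and 36.7 FPKM in MDA-MB468. The FPKM of the lines were close in vehicle and apart at both doses, with HCC70 the lower. The log2 ratio was −2.85 (−3.04 to −2.7) in HCC70 and −1.06 (−1.14 to −0.98) in MDA-MB468, a difference of −1.8 (−1.98 to −1.61). IDI1, CYP51A1, MSMO1, FDFT1 and LSS, enzymes of isoprenoid and sterol synthesis, also fell by more in HCC70, with log2 ratios of −2.01, −2.16, −2.06, −1.55 and −1.75 there and −0.77, −1.21, −1.07, −0.64 and −0.95 in MDA-MB468.

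Other enzymes fell alike in both lines. With vehicle, 1.25 and 2.5 μM, HCC70 had 16.1, 5.79 and 3.88 FPKM of HMGCS1, and MDA-MB468 had 57.1, 23.5 and 15.6. HMGCS1, at chr5:43287572-43313614 (GRCh37), makes HMG-CoA, and its log2 ratios of −2.02 and −1.87 differed by −0.15 (−0.39 to 0.08). ACAT2, which starts the pathway, had ratios of −1.46 and −1.45. FDPS, the farnesyl diphosphate synthase, had ratios of −0.83 and −0.83, although reads of FDPS and of HSD17B7 may be shared with their pseudogenes. For HMGCS1, ACAT2 and FDPS the counting interval of the difference held 0. EBP, a late enzyme of the pathway, had the larger fall in MDA-MB468, with ratios of −0.88 and −1.26 and an interval of the difference of 0.15 to 0.61.

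MVD, the decarboxylase that makes isopentenyl diphosphate (chr16:88718343-88729569, GRCh37), was lower with XY018 in HCC70 alone. The level of MVD was 56.05, 18.1 and 17.3 FPKM over the 3 HCC70 libraries by rising dose, and 144, 124.8 and 123 FPKM over those of MDA-MB468. HCC70 lost most of its MVD already at 1.25 μM, while the MDA-MB468 libraries stayed near their vehicle. The log2 ratios were −1.69 (−1.89 to −1.51) and −0.23 (−0.29 to −0.17). In the GSK805 pair of MDA-MB468, however, MVD stood at 423 FPKM with vehicle and 161 FPKM with GSK805, a ratio of −1.39. PMVK and GGPS1 passed 1.5-fold in neither line, with ratios between −0.28 and 0.06 in the 4 comparisons.

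**Figure D2:**
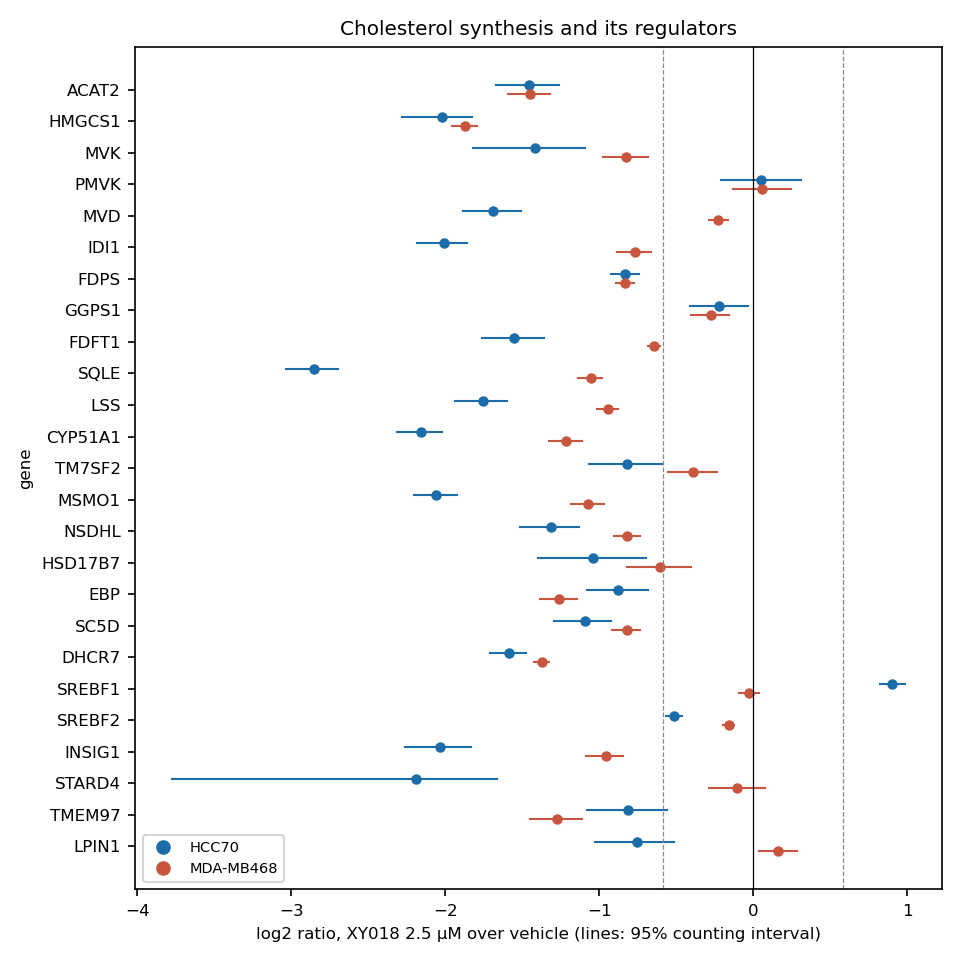
The log2 ratio of XY018 at 2.5 μM over vehicle on the x axis for the cholesterol biosynthesis genes and the SREBP regulators named in the text, with the 95% counting interval as a line and 1.5-fold as dashed lines. SQLE, MVD and IDI1 lie well to the left in HCC70, whereas ACAT2 and FDPS nearly coincide.

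The stretches before the start sites of 3 of these genes are shown because, with XY018, HMGCS1 and FDPS fell alike in both lines and MVD in HCC70 alone. They are the 250 bases before the start that RefSeq lists (GRCh38.p14), 5′ to 3′ on the gene's strand, and capitals mark CCAAT or its reverse complement ATTGG. HMGCS1 is chr5:43313413-43313662 on the minus strand, FDPS chr1:155308616-155308865 on the plus strand and MVD chr16:88663092-88663341 on the minus strand.
HMGCS1: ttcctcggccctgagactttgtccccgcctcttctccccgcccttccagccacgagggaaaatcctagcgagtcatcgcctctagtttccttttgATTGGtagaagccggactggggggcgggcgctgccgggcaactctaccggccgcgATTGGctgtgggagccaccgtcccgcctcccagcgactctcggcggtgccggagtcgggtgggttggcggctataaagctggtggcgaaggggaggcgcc
FDPS: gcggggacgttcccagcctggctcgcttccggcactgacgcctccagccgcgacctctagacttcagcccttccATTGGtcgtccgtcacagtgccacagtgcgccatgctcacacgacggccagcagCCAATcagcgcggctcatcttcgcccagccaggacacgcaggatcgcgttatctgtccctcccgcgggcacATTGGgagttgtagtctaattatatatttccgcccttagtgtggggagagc
MVD: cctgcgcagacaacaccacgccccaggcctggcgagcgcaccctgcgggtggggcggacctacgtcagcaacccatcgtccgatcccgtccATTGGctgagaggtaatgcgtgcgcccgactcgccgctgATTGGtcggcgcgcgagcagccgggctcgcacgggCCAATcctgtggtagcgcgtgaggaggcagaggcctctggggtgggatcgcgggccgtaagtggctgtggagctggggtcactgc
CCAAT is a common promoter element bound by NF-Y, a partner of SREBP2. It stood on either strand in 12 of the 16 cholesterol genes with a promoter in the table (75%), and in 35.9% of the 8992 genes compared that had one. Among the genes lower in both lines without the cholesterol list it stood in 21 of 55 (38.2%), and the sterol response element letters TCACNCCAC stood in none of the 16 and in 0.867% of the 8992. A match is a description of these letters and not of a binding site.

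The regulators of SREBP and of sterol uptake fell in part in both lines. Of 13 genes, 6 were lower and 1 higher in HCC70 and 5 lower and 1 higher in MDA-MB468, and 4 were lower in both. The shares over all genes were 2.51% and 1.92% in HCC70, 13.3% and 12.7% in MDA-MB468, and 0.875% lower in both. INSIG1, which holds SREBP in the ER, stood at 32.3 and 7.79 FPKM in HCC70 and at 30.1 and 15.4 FPKM in MDA-MB468, a difference of −1.08 (−1.32 to −0.83). TMEM97 had ratios of −0.81 and −1.27.

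SREBF1, SREBF2, STARD4 and LPIN1 did not follow the same pattern in the lines. SREBF1 stood at 37.4, 64.9 and 69.9 FPKM in HCC70 with vehicle, 1.25 and 2.5 μM of XY018, and at 41.4, 37.02 and 40.5 FPKM in MDA-MB468. SREBF1, which encodes the SREBP1 factor of fatty acid synthesis, was thus higher in HCC70 alone, with a ratio of 0.90 (0.82 to 0.99) against −0.03 (−0.10 to 0.03). SREBF2, which encodes SREBP2, passed 1.5-fold in neither line, with ratios of −0.52 and −0.16. STARD4, a sterol carrier, stood at 1.36, 0.39 and 0.22 FPKM in HCC70 with vehicle, 1.25 and 2.5 μM and at 5.85, 6.01 and 5.42 FPKM in MDA-MB468. Its lowest library held an estimated 10 fragments, so the HCC70 interval of −3.77 to −1.67 was wide. LPIN1, a phosphatidate phosphatase, was lower in HCC70 alone, with ratios of −0.75 and 0.16.

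The sterol exporters ABCA1 and ABCG1 rose in both lines and by more in HCC70. In the vehicle, 1.25 μM and 2.5 μM libraries, ABCA1 was at 2.22, 24.3 and 38.3 FPKM in HCC70 and at 0.24, 0.74 and 1.31 FPKM in MDA-MB468. The HCC70 level rose at both doses, and the MDA-MB468 level rose from close to 0. The log2 ratios were 4.05 (3.91 to 4.31) and 2.05 (2.0 to 2.92), and the difference was 2.0 (1.52 to 2.48). At so low a level the difference depended on the value added to FPKM. It was 1.7 with 0.01 added and 2.71 with 1 added, the latter outside the interval. ABCG1 went from 1.34 up to 35.9 FPKM in HCC70, while MDA-MB468 had 1.14 and 5.77 FPKM, with ratios of 4.64 and 2.24. These were the 2 genes higher in both lines among 6 compared LXR genes. NR1H3 and NR1H2, which encode the LXR receptors, had ratios of −0.07 and −0.07, and of 0.03 and 0.58. MYLIP and LPCAT3, further LXR targets, had ratios of 0.53 and 0.49 in HCC70 and 0.07 and −0.19 in MDA-MB468.

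Fatty acid synthesis was mixed. Of 12 genes, 3 were lower and 2 higher in HCC70 and 5 lower and none higher in MDA-MB468. Beside them stand 2.51% lower and 1.92% higher of all genes in HCC70, and 13.3% and 12.7% in MDA-MB468. FASN, the fatty acid synthase, fell alike, from 79.2 to 43.9 FPKM in HCC70 and from 449 to 244 FPKM in MDA-MB468, with ratios of −0.85 and −0.88. The desaturase FADS1 had ratios of −1.01 and −0.75, and FADS2 had −1.53 and −0.44. ACLY, which makes cytosolic acetyl-CoA, fell in MDA-MB468 with ratios of −0.40 and −1.29. ACSL3, an acyl-CoA synthetase of lipid droplets, rose in HCC70 with a ratio of 1.24 against −0.53, and the elongase ELOVL6 moved in opposite directions, 0.70 and −1.71. PDK4 and ANGPTL4, targets of PPAR receptors, were the genes higher in both lines among 10 of fatty acid oxidation and lipid droplets. ANGPTL4 rose from 4.38 to 40.8 FPKM in HCC70 and from 0.17 to 1.05 FPKM in MDA-MB468, where its lowest library held an estimated 6 fragments. PLIN2, which coats lipid droplets, rose in HCC70 from 126 to 261 FPKM and stood at 24.4 and 32.03 FPKM in MDA-MB468.

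The genes lower in both lines outside the sterol lists included 2 of 10 compared keratins, KRT5 and KRT17. With vehicle, 1.25 and 2.5 μM, HCC70 had 659.8, 408 and 355 FPKM of KRT5, and MDA-MB468 had 112, 55.01 and 40.2. KRT5 is a basal keratin, and its ratios were −0.90 and −1.48. KRT17, whose reads may be shared with KRT16 and pseudogenes, had ratios of −0.72 and −0.66. SLC6A14, an amino acid transporter, had ratios of −1.23 and −1.97. The level of S100A8 was 6155, 4349 and 3687 FPKM over the 3 HCC70 libraries by rising dose, and 81.8, 17.3 and 4.61 FPKM over those of MDA-MB468. S100A8, a subunit of the neutrophil protein calprotectin, thus passed 1.5-fold in both lines but fell much further in MDA-MB468, with a difference of 3.38 (2.85 to 3.92). KLHL23, also in this group, was listed at 0 in HCC70 with XY018, and no fold is given for it because the overlapping readthrough gene PHOSPHO2-KLHL23 moved the other way there, from 0.42 to 2.53 FPKM. ANXA8 and C4B have near-identical copies and are uncertain.

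The genes higher in both lines included members of the stress response, hypoxia and Krüppel-like factor lists. DDIT3 stood at 8.38, 13.2 and 15.5 FPKM in HCC70 with vehicle, 1.25 and 2.5 μM of XY018, and at 17.5, 67.7 and 86.7 FPKM in MDA-MB468. DDIT3 encodes the stress factor CHOP, and its ratios of 0.88 and 2.3 differed by −1.43 (−1.88 to −0.98). UPP1, a uridine phosphorylase, rose from 20.8 to 42.95 FPKM in HCC70 and from 36.8 to 197 FPKM in MDA-MB468. The hypoxia-induced gene NDRG1 had ratios of 0.99 and 1.68, and VEGFA, the angiogenic growth factor, had 0.71 and 0.62 with an interval of the difference of −0.01 to 0.20. KLF4, a factor of epithelial differentiation, had 0.80 and 1.87, and HERPUD1, a gene of ER protein degradation, 0.61 and 2.08. BHLHE41, MAFF, CLIP2, SERPINA3, S100P and DDIT4 rose in both lines as well. Over the 56 genes the median ratio was 0.75 in HCC70 and 1.08 in MDA-MB468, and over the 95 lower genes it was −0.90 and −1.0. The groups were chosen by these ratios, so the medians are descriptions.

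**Figure D3:**
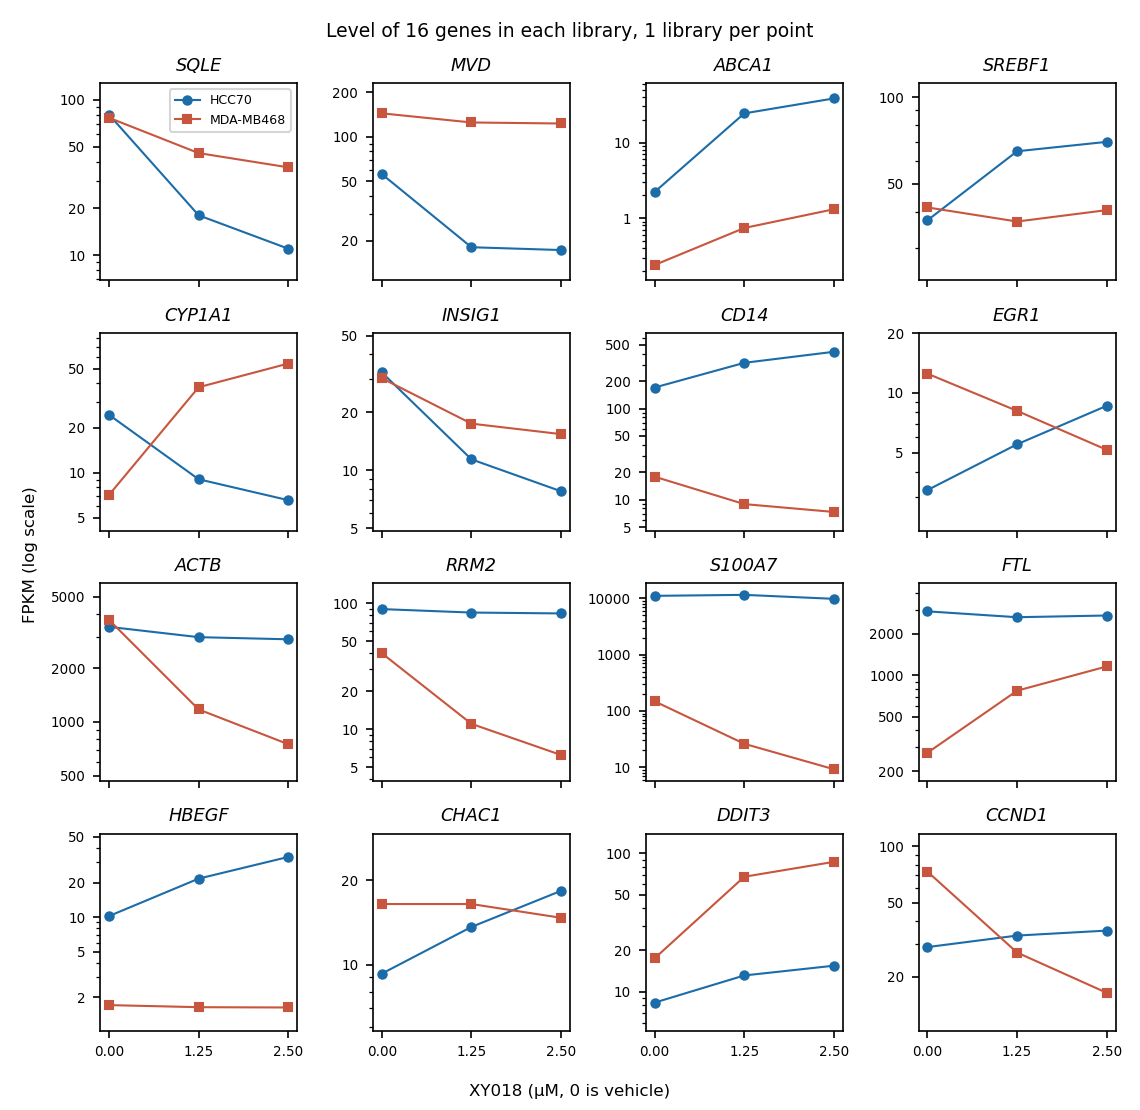
FPKM on a log scale for 16 genes in each library, by XY018 dose on the x axis, with 1 library per point and the vehicle at 0. SQLE falls in both lines and more steeply in HCC70, CYP1A1 and EGR1 cross between the lines, and ACTB, RRM2 and S100A7 fall in MDA-MB468 alone.

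HBEGF, a ligand of the EGF receptor, was among the 53 genes higher in HCC70 alone and had the largest rise there among 7 compared members of the EGFR family. In the vehicle, 1.25 μM and 2.5 μM libraries, HBEGF was at 10.2, 21.6 and 33.4 FPKM in HCC70 and at 1.71, 1.64 and 1.63 FPKM in MDA-MB468. The MDA-MB468 libraries stayed within a narrow range at a low level, and the ratios were 1.7 (1.5 to 1.93) and −0.07 (−0.54 to 0.42). The chemokine CXCL8 stood at 6.1 and 16.1 FPKM in HCC70 and at 16.5 and 16.1 FPKM in MDA-MB468. TMEM156, SCNN1A, which encodes a subunit of the epithelial sodium channel, and C10orf10 rose in HCC70 alone with ratios of 1.65, 0.73 and 1.02. FOSL1, an AP-1 factor, had ratios of 1.23 and 0.07, but at 1.25 μM it had 0.50 and 0.51, a difference of −0.013. On the lower side, KRT16, the small GTPase RHOV, CHCHD6 and NUDT8 fell in HCC70 alone with ratios of −0.94, −0.78, −0.71 and −0.78, against 0.17, 0.17, 0.21 and 0.05 in MDA-MB468.

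The integrated stress response had partly different members past 1.5-fold in the 2 lines. Of 11 genes, 5 were higher in each line and none was lower, but only DDIT3 and DDIT4 were among the 5 in both. Over all genes 1.92% were higher in HCC70 and 12.7% in MDA-MB468. The median ratio of the 11 was 0.50 in HCC70 and 0.43 in MDA-MB468. With vehicle, 1.25 and 2.5 μM, HCC70 had 9.28, 13.6 and 18.3 FPKM of CHAC1, and MDA-MB468 had 16.4, 16.4 and 14.7. CHAC1, which degrades glutathione, was thus higher in HCC70 alone, as was SESN2, a stress-induced inhibitor of mTORC1, with ratios of 0.99 and 0.25. ASNS, the asparagine synthetase, rose in HCC70 with a ratio of 0.82 against −0.36 in MDA-MB468. ATF3, TRIB3 and PPP1R15A, also targets of the pathway, were higher in MDA-MB468, where ATF3 rose from 7.61 to 46.6 FPKM and PPP1R15A from 17.98 to 104 FPKM. Their ratios in HCC70 were 0.50, 0.45 and 0.27, rises that did not reach 1.5-fold (0.585 on the log2 scale). ATF4, the factor that drives these genes, had ratios of 0.29 and −0.17.

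Genes of serine synthesis, one-carbon metabolism and amino acid uptake had the higher ratio in HCC70 in 11 of 11 cases, beside 5188 of 10856 over all genes. The median of the 11 was 0.40 in HCC70 and −0.24 in MDA-MB468. Only 2 of them, CTH and the transporter SLC7A5, passed 1.5-fold upward in HCC70, and 2, PSAT1 and PSPH, passed it downward in MDA-MB468. Over all genes 1.92% were higher in HCC70 and 13.3% lower in MDA-MB468, and the 2 of 11 lower are near the latter share. The level of PSAT1 was 79.5, 111 and 116 FPKM over the 3 HCC70 libraries by rising dose, and 151, 94.4 and 73.8 FPKM over those of MDA-MB468. PSAT1 makes phosphoserine, and its ratios of 0.55 and −1.03 differed by 1.58 (1.47 to 1.69). Among 12 cytosolic aminoacyl-tRNA synthetases, which charge tRNAs, none passed in HCC70 and 2, SARS and WARS, were higher in MDA-MB468, with medians of 0.34 and 0.07. These counts are near the shares of all genes, of which 4.42% passed in HCC70 and 12.7% were higher in MDA-MB468.

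DNA replication genes fell in MDA-MB468 alone. Of 25 genes, all compared, 18 were lower in MDA-MB468, against 13.3% of all genes, and none in HCC70, against 2.51%, and the median ratio in HCC70 was 0.01 against −0.99 in MDA-MB468. RRM2, the subunit of ribonucleotide reductase that varies with the cell cycle, fell furthest. RRM2 stood at 89.6, 84.1 and 82.8 FPKM in HCC70 with vehicle, 1.25 and 2.5 μM of XY018, and at 39.99, 11.02 and 6.24 FPKM in MDA-MB468. The 3 HCC70 libraries lay close together, and the 3 from MDA-MB468 separated widely. The ratios were −0.11 (−0.19 to −0.04) and −2.66 (−2.84 to −2.52). UHRF1, which maintains DNA methylation, fell from 14.9 to 3.42 FPKM in MDA-MB468 and stood at 16.4 and 19.3 FPKM in HCC70. MCM2 to MCM6, subunits of the replicative helicase, had ratios between −1.28 and −0.79 in MDA-MB468 and between −0.23 and 0.12 in HCC70. PCNA, the sliding clamp, had −1.32 and −0.11. E2F1, a factor that drives these genes, had −1.33 and 0.05. In bulk RNA, fewer cells in a cycle phase and less RNA per cell cannot be told apart.

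Mitosis and G1 genes followed. Of 20 mitotic and spindle genes, 11 were lower in MDA-MB468 and none in HCC70, and in 20 of 20 the ratio was higher in HCC70. Over all genes 13.3% were lower in MDA-MB468 and 2.51% in HCC70, and 5188 of 10856 had the higher ratio in HCC70. KIF20A, a mitotic kinesin, had ratios of −1.47 in MDA-MB468 and −0.18 in HCC70. CDK1, the mitotic kinase, had −0.96 and −0.13. In the vehicle, 1.25 μM and 2.5 μM libraries, CCND1 was at 28.9, 33.3 and 35.4 FPKM in HCC70 and at 73.3, 27.03 and 16.5 FPKM in MDA-MB468. CCND1 encodes cyclin D1, and its MDA-MB468 level fell at both doses while the HCC70 level changed little, with ratios of −2.15 and 0.29. Of 12 compared G1 genes, 4 were lower in MDA-MB468, CCND1, CCNE1, CCNE2 and CDK2, and 2 were higher, the inhibitors CDKN1A and CDKN1B. None of the 12 passed 1.5-fold in HCC70. Over all genes 13.3% were lower and 12.7% higher in MDA-MB468, and 4.42% passed in HCC70. The 2 higher in MDA-MB468 and the absence of any in HCC70 are near those shares. Of 12 compared BCL2 family and death receptor genes, 2 were higher in MDA-MB468, near the 12.7% of all genes, and none passed in HCC70. These were the pro-apoptotic BBC3 and BMF, with ratios of 1.59 and 1.37, against 0.57 and −0.10 in HCC70. The median of the 12 was 0.03 in MDA-MB468 and 0.20 in HCC70, and 9 of them had the higher ratio in HCC70.

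Actin and its partners fell in MDA-MB468. Of 16 genes for actins and targets of SRF, a factor that responds to actin dynamics, 9 were lower and 1 higher in MDA-MB468, against none lower and 1 higher in HCC70. The shares over all genes were 13.3% lower and 12.7% higher in MDA-MB468 and 2.51% and 1.92% in HCC70. With vehicle, 1.25 and 2.5 μM, HCC70 had 3399, 2977 and 2896 FPKM of ACTB, and MDA-MB468 had 3718, 1175 and 751. The FPKM of β-actin were close in the vehicles of the 2 lines and far apart at both doses. The ratios were −0.23 and −2.31. ACTG1, γ-actin, fell from 1713 to 383 FPKM in MDA-MB468 and stood at 659 and 594 FPKM in HCC70, and reads of ACTB and ACTG1 may be shared with each other and with pseudogenes. FLNA, TPM1 and VCL, which cross-link actin, line its filaments and anchor it, had ratios of −1.05, −1.29 and −0.85 in MDA-MB468 and −0.05, −0.18 and 0.08 in HCC70. SRF itself had −0.40 and −0.10. Of 8 compared genes of YAP, TAZ and their targets, 6 were lower in MDA-MB468 and none in HCC70, among them CYR61 with ratios of −1.98 and −0.15 and AMOTL2 with −1.37 and 0.14. WWTR1, which encodes TAZ, had −1.04 and −0.01.

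Promoters of 2 replication and 2 actin genes are shown because their groups fell in MDA-MB468 alone. The same 250 bases are given (RefSeq, GRCh38.p14). In UHRF1 (chr19:4909251-4909500, plus strand) and MCM3 (chr6:52284743-52284992, minus strand) capitals mark an E2F site, searched as TTTCCCGC or TTTGGCGC on both strands. In ACTG1 (chr17:81512800-81513049, minus strand) and FLNA (chrX:154374635-154374884, minus strand) they mark a CArG box, the element SRF binds.
UHRF1: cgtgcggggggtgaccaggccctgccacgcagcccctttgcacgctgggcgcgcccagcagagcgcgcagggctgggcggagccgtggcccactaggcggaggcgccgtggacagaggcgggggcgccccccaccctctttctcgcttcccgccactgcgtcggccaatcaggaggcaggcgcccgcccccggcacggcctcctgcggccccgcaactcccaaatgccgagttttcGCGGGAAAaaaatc
MCM3: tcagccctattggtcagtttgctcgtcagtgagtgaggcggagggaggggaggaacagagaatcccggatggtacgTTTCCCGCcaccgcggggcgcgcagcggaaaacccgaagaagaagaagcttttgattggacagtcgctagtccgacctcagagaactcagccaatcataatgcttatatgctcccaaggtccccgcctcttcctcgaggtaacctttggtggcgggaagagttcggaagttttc
ACTG1: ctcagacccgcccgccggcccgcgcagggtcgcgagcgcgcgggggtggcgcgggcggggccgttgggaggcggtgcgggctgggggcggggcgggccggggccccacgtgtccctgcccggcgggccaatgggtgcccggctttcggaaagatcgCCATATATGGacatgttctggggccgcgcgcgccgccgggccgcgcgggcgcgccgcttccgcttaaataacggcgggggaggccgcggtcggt
FLNA: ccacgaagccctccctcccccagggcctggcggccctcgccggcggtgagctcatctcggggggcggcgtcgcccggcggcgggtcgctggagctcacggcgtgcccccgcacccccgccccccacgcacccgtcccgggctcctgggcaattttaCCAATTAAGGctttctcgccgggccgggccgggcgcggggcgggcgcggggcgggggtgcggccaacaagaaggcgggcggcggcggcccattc
The E2F letters stood in 12 of 22 replication genes with a promoter (54.5%) and in 3.3% of all 8992, and the CArG box in 6 of 13 actin and SRF genes (46.2%) and in 0.968% of all. The actin list was made of actins and SRF targets, and replication genes are known E2F targets, so these 2 shares follow in part from the choice of lists. They are no evidence about the response to XY018. In the MDA-MB468-specific lower group as a whole, which the response defined, the shares were 4.58% and 1.65% of 786 genes. CCAAT, marked in the sterol genes above, stood in 16 of the 22 replication genes (72.7%) as well.

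Secreted proteins of the innate response fell in MDA-MB468, and several of them stood far higher in HCC70 throughout. Of 12 compared acute phase and S100 genes, 8 were lower and 3 higher in MDA-MB468, where 13.3% and 12.7% of all genes were, against 1 lower and 2 higher in HCC70. The level of S100A7 was 11038, 11494 and 9769 FPKM over the 3 HCC70 libraries by rising dose, and 148, 26.1 and 9.22 FPKM over those of MDA-MB468. S100A7, psoriasin, was among the most abundant transcripts of HCC70 in every library, and its ratio was −0.18 there and −3.99 in MDA-MB468. PI3, the elastase inhibitor elafin, fell from 444 to 52.4 FPKM in MDA-MB468 and stood at 3612 and 3903 FPKM in HCC70. S100A9, SAA1, C3 and SLPI had ratios of −2.81, −1.73, −1.2 and −1.31 in MDA-MB468 and between −0.19 and 0.24 in HCC70. CP, ceruloplasmin, had −2.78 and 0.21. Among epithelial genes, KRT8 and KRT14 had ratios of −0.97 and −3.1 in MDA-MB468 and −0.13 and −0.41 in HCC70, and CDH3, P-cadherin, had −1.17 and −0.09. KRT14 went from 4.63 to 0.45 FPKM in MDA-MB468, where its lowest library held an estimated 13 fragments and the interval was −4.34 to −2.58. Its difference between the lines was 2.7, and 1.6 with 1 FPKM added. EPCAM stood at 112 and 87.8 FPKM in MDA-MB468 and CDH1 at 33.1 and 27.4 FPKM, within 1.5-fold.

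MDA-MB468 raised iron storage, antioxidant and ER genes, and of these lists only HERPUD1 was higher in HCC70 as well. Of 14 genes of NRF2 and iron storage, 8 were higher, against 12.7% of all genes, and none lower in MDA-MB468, whereas in HCC70 none was higher and 1, AKR1C2, was lower. FTL stood at 2925, 2650.4 and 2728 FPKM in HCC70 with vehicle, 1.25 and 2.5 μM of XY018, and at 272, 772 and 1159.7 FPKM in MDA-MB468. FTL, the ferritin light chain, had ratios of −0.10 and 2.09, and FTH1, the heavy chain, rose from 4269.9 to 12298 FPKM in MDA-MB468 against 5378 and 4938 FPKM in HCC70. Both ferritins have many pseudogenes, so their reads are uncertain. GCLC, which starts glutathione synthesis, had 1.71 in MDA-MB468 and −0.22 in HCC70. Of 15 ER chaperone and unfolded protein genes, 9 were higher in MDA-MB468 and 1, HERPUD1, in HCC70. In the vehicle, 1.25 μM and 2.5 μM libraries, HSPA5 was at 145, 163 and 177 FPKM in HCC70 and at 106, 292 and 329 FPKM in MDA-MB468. HSPA5 encodes the chaperone BiP, and MDA-MB468 passed the HCC70 level with XY018. SDF2L1, MANF and HYOU1 had ratios of 1.38, 1.07 and 1.2 in MDA-MB468 and between −0.21 and 0.24 in HCC70. YIF1A and ARF4, of ER to Golgi traffic, and TUBA4A, an α-tubulin, rose in MDA-MB468 alone with ratios of 2.01, 1.93 and 2.13.

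CYP1A1, a monooxygenase induced through the aryl hydrocarbon receptor, showed the widest opposite movement among genes at 5 FPKM or above in both lines (chr15:75011883-75017877, GRCh37). With vehicle, 1.25 and 2.5 μM, HCC70 had 24.5, 9.05 and 6.55 FPKM of CYP1A1, and MDA-MB468 had 7.11, 37.6 and 54.1. It fell at both doses in HCC70 and rose at both in MDA-MB468, so the order of the lines was inverted. The ratios were −1.89 (−2.16 to −1.65) and 2.91 (2.77 to 3.09), a difference of −4.8 (−5.09 to −4.51). CYP1B1, a related enzyme, stood at 176 and 88.5 FPKM in HCC70 and 47.1 and 67.2 FPKM in MDA-MB468, where it did not reach 1.5-fold. Of further targets of the receptor, TIPARP had ratios of 0.23 and 0.76, and AHR, which encodes the receptor, had 0.08 and 0.25.

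Of the genes that rose in HCC70 and fell in MDA-MB468, CD14, a coreceptor for lipopolysaccharide, stood at the highest level. The level of CD14 was 170.0, 317 and 419 FPKM over the 3 HCC70 libraries by rising dose, and 17.9, 8.94 and 7.33 FPKM over those of MDA-MB468. The doses followed one another in both lines, in opposite directions, with ratios of 1.3 (1.23 to 1.37) and −1.27 (−1.54 to −1.03). EGR1, an immediate early factor, crossed between the lines. EGR1 stood at 3.24, 5.51 and 8.61 FPKM in HCC70 with vehicle, 1.25 and 2.5 μM of XY018, and at 12.5, 8.12 and 5.17 FPKM in MDA-MB468. Its ratios were 1.38 (1.07 to 1.76) and −1.26 (−1.47 to −1.08). ETV5 and SPRY4, respectively a factor and an inhibitor downstream of MAPK signalling, had 0.73 and 0.64 in HCC70 and −1.22 and −1.0 in MDA-MB468. Of 18 genes of MAPK feedback and early response, 6 were higher and none lower in HCC70. In MDA-MB468, 2 were higher and 9 lower, and in 13 the HCC70 ratio was at least 1.5-fold above. Over all genes 1.92% were higher and 2.51% lower in HCC70, and 12.7% higher and 13.3% lower in MDA-MB468. In 13.3% of all genes the HCC70 ratio was at least 1.5-fold above. The 2 of 18 higher in MDA-MB468 are near the share of all genes. DUSP6, the ERK phosphatase, had ratios of 0.32 and −1.56, whereas JUN, another early gene, was higher in MDA-MB468 with 0.54 and 1.52.

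CA9, a carbonic anhydrase of hypoxia, ZSWIM4, PSCA and PRSS27 were higher in HCC70 and lower in MDA-MB468 too, with ratios of 0.80, 0.83, 0.95 and 0.69 against −1.82, −0.96, −0.75 and −0.84. MYL9, a myosin light chain, had 0.89 and −1.69, but its HCC70 counting interval of −0.03 to 1.99 held 0. In the other direction, DERL3, of ER protein degradation, AHNAK2, the antiviral gene OASL, the stress ligand MICA and KRT6B had ratios of −0.92, −0.84, −1.08, −0.97 and −0.80 in HCC70 and 1.51, 1.78, 0.91, 0.70 and 1.0 in MDA-MB468. Reads of KRT6B may be shared with KRT6A. SMN2 was listed at 0 in HCC70 with XY018 and in MDA-MB468 vehicle, and since its reads are shared with SMN1 no fold is given.

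Many of the opposite genes had low levels. Their median vehicle FPKM in HCC70 and MDA-MB468 were 1.66 and 6.13 for the 36 genes higher in HCC70 and 2.95 and 2.45 for the 49 lower in HCC70, and counting intervals lay off 0 in both lines for 33 and 32 of them. At 1.25 μM, against the same vehicles, the median ratios in HCC70 and MDA-MB468 were 0.49 and −0.70 for the 36 genes and −0.52 and 0.72 for the 49, beside 0.80 and −0.99, and −0.76 and 0.83, at 2.5 μM. With GSK805, measured in MDA-MB468 alone against another vehicle, 26 of 35 and 33 of 47 genes with a value moved as with XY018 in that line, and 16 and 16 passed 1.5-fold in that direction. The same share over all genes was not counted. The median GSK805 ratios were −0.42 and 0.23, close to −0.39 and 0.25 for genes lower and higher in MDA-MB468 alone. CYP1A1 had a GSK805 ratio of 2.69, in its XY018 direction in that line. EGR1 and ETV5 had 1.25 and 2.55, against XY018 ratios of −1.26 and −1.22 there.

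**Figure D4:**
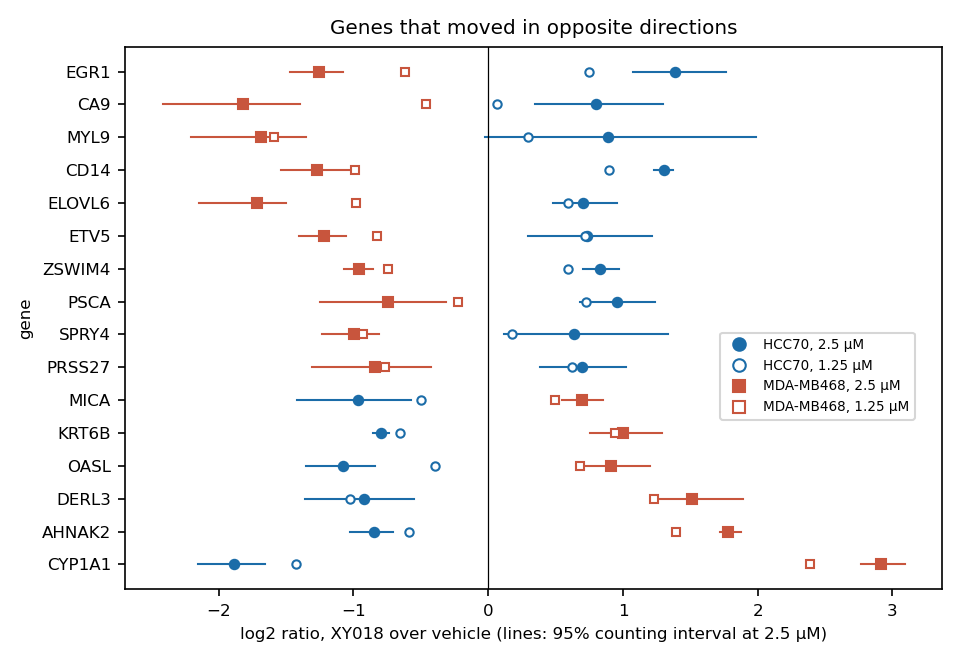
The log2 ratio of XY018 over vehicle on the x axis for 16 genes that moved in opposite directions, with filled points and 95% counting intervals at 2.5 μM and open points at 1.25 μM. The 2 doses share their vehicle, and CYP1A1 has the widest gap.

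Over all genes, 26.1% passed 1.5-fold in MDA-MB468 and 4.42% in HCC70, and the counts of the other lists stand beside these shares. Of 19 interferon-stimulated genes, 10 were lower and 4 higher in MDA-MB468 and 2 lower in HCC70. MX1 and IFITM1, antiviral proteins, had ratios of −1.63 and −1.96 in MDA-MB468 and −0.18 and −0.26 in HCC70, and IFI27 was listed at 1.18 FPKM and then at 0 in MDA-MB468, against 239 and 244 FPKM in HCC70. Of 12 NF-κB targets and chemokines, 6 were higher and 1 lower in MDA-MB468 and 2 higher in HCC70. SOD2, the mitochondrial superoxide dismutase, had 1.69 and 0.03. Of 15 clock genes, 5 were higher and 1 lower in MDA-MB468 and 1 higher in HCC70, with PER1 at 5.74 and 26.7 FPKM in MDA-MB468 and at 1.51 and 1.15 FPKM in HCC70. Of 17 glycolytic genes, 4 were lower and 2 higher in MDA-MB468 and 3 higher in HCC70, among them the glucose transporter SLC2A1 with ratios of 0.80 in HCC70 and 0.18 in MDA-MB468. LDHA, the lactate dehydrogenase, had −0.09 and −1.21. Of 9 hypoxia genes outside glycolysis, 5 were higher in HCC70, and 3 were higher and 3 lower in MDA-MB468. ADM and BNIP3, a vasodilator peptide and a mitophagy receptor, were the members higher in HCC70 alone, with ratios of 0.60 and 0.65 against 0.14 and 0.15.

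Epithelial groups were split. Of 10 keratins, 4 were lower in HCC70 and 5 lower and 1 higher in MDA-MB468, and KRT5 and KRT17 were the 2 lower in both. Of 14 adhesion and mesenchymal genes, none passed 1.5-fold in HCC70 and 3 were lower and 1, VIM, higher in MDA-MB468, where VIM stood at 1.78 and 4.53 FPKM. Among 7 genes of the EGFR family, HBEGF and AREG were higher in HCC70 and none passed in MDA-MB468, and EGFR itself stood at 47.95 and 48.4 FPKM in HCC70 and at 944 and 638 FPKM in MDA-MB468. Of 10 Krüppel-like factors, 1 was higher in HCC70 and 3, with KLF4 the shared member, in MDA-MB468. Of 8 BMP and TGF-β targets, 1, ID2, was lower in HCC70, with ratios of −0.74 and 0.55, and 2 were lower and 2 higher in MDA-MB468. Of 4 metallothioneins, none passed in HCC70 and 1 was lower and 1 higher in MDA-MB468. Over all genes 2.51% were lower and 1.92% higher in HCC70, and 13.3% and 12.7% in MDA-MB468. The counts of adhesion and mesenchymal genes are near the shares of all genes, of which 4.42% passed in HCC70 and 26.1% in MDA-MB468. The metallothioneins are too few to set against these shares.

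None of 50 cytosolic ribosomal proteins passed 1.5-fold in either line, although the ratio was lower in HCC70 in 45 of them, with medians of −0.03 and 0.18. Of 26 respiratory chain subunits, 1, COX7B, was lower in MDA-MB468, with ratios of −0.96 and −0.21. Of 12 heat shock proteins, 2, HSP90AA1 and HSPE1, were lower in MDA-MB468 and none in HCC70, and among 14 lysosomal genes 2 were lower and 1 higher in MDA-MB468. For these last 2 lists the shares lower are near the 13.3% of all genes that were lower in MDA-MB468.

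**Figure D5:**
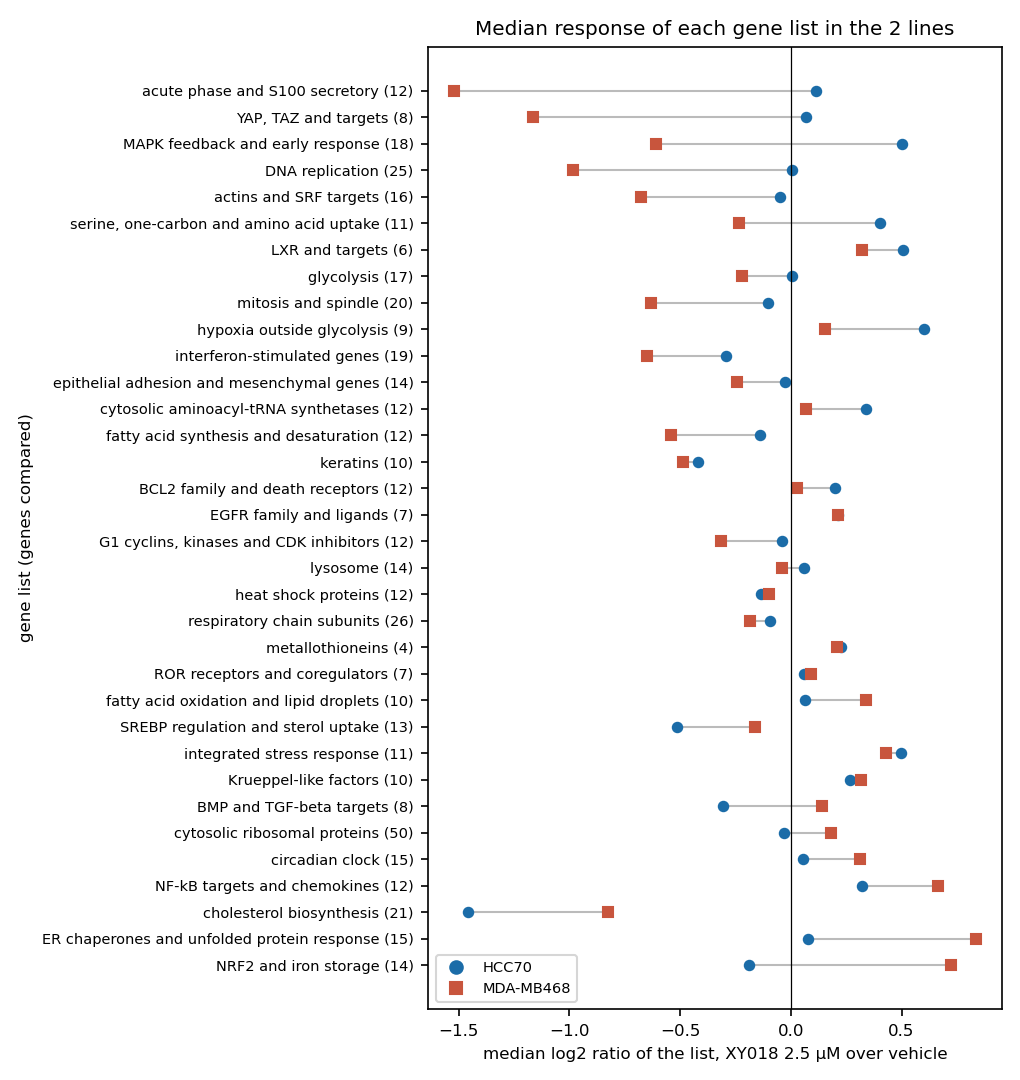
The median log2 ratio of XY018 at 2.5 μM over vehicle for each of 34 gene lists, with circles for HCC70, squares for MDA-MB468 and the number of genes compared in brackets, sorted by the median difference of the lines. Acute phase and S100, YAP, MAPK feedback and DNA replication stand at the top with the lower value in MDA-MB468, and cholesterol biosynthesis is the list with the lowest HCC70 value.

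Genes expressed in 1 line only could not enter the comparison. Among the 16384 genes listed for both lines, 859 stood at 1 FPKM or above in HCC70 alone, of which 106 were lower and 99 higher with XY018. In MDA-MB468 alone there were 1011, of which 259 were lower and 289 higher, and 3658 stood below 1 FPKM in both lines. Of the 10856 genes compared, 2.51% were lower and 1.92% higher in HCC70, and 13.3% and 12.7% in MDA-MB468. Genes of 1 line alone thus passed more often, and what part levels near the 1 FPKM limit have in this was not tested.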

How the data were processed

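FPKM values per gene were made by the authors before deposition, with BWA, Bowtie and Cufflinks named in the submitters' processing notes beside GRCh37 (hg19). They were deposited as 3 tables, 1 for HCC70, 1 for MDA-MB468 with XY018 and ATV, and 1 for MDA-MB468 with GSK805, each normalized separately. Neither the headers nor the methods name FPKM: the unit was inferred from the use of Cufflinks and from decimal values whose sums differ between libraries, and all levels and counting intervals rest on it. Versions are not given in the sources used here. Genes were matched by Entrez ID, since 27 symbols had been turned into dates, and 17 of these were compared. Log2 ratios used 0.1 added to FPKM, a filter of 1 FPKM, 1.5-fold to call a gene and 1.2-fold as the limit of a line-specific call. Fragments per gene were estimated from the spacing of low FPKM values of single-transcript genes, with GENCODE lengths for 10678 compared genes. They gave Clopper-Pearson intervals at 95% for ratios, without the 0.1 added to FPKM. Intervals for differences were normal ones centred on the difference with 0.1 added, and both cover counting error only. No correction was made for the wider spread in MDA-MB468.

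Members, gene lists and rules were chosen with earlier results of these data known. Named genes were up to 6 of each of the 8 groups at 5 FPKM or above in both lines, ranked by the smaller ratio or the difference, all cholesterol genes, selected regulators, and of 34 lists the member with the largest difference and those past 1.5-fold in both lines. List members and markers named beyond this rule, and KLHL23, PHOSPHO2-KLHL23 and SMN2, were chosen after their values were seen. Some genes are not reported here. Promoters came from RefSeq (GRCh38.p14) by Entrez ID, the first listed start of each gene, for 8992 of the 10856 genes. Scripts were tested on simulated data and run under Python 3.11.15 with matplotlib 3.10.9, scipy 1.17.1, pandas 2.3.3 and numpy 2.4.6. Alternatives were other pseudocounts, filters and thresholds, rescaling to a median of 0, the lower dose and counting intervals.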

Additional observations from a re-analysis of the deposited data

Results flagged for a closer look

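The 16 named genes that passed 1.5-fold in opposite directions in the 2 lines are listed here because the whole movement of one line ran against that of the other. Each line has 1 library per condition, so the difference was not tested. The HCC70 log2 ratio lay below that of MDA-MB468 by −4.8 for CYP1A1, −2.62 for AHNAK2, −2.44 for DERL3, −1.99 for OASL, −1.8 for KRT6B and −1.67 for MICA. It lay above by 1.53 for PRSS27, 1.63 for SPRY4, 1.7 for PSCA, 1.79 for ZSWIM4, 1.94 for ETV5, 2.42 for ELOVL6, 2.57 for CD14, 2.58 for MYL9, 2.62 for CA9 and 2.64 for EGR1.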

How the results depend on the processing

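The counts of genes in the groups were sensitive to how low values and the threshold were handled. With 1 FPKM added in place of 0.1, 61 genes were lower and 33 higher in both lines, 15 were higher in HCC70 and lower in MDA-MB468, 21 the reverse, and 28 were lower in HCC70 alone. With no filter on low values these counts were 218, 232, 148, 243 and 343, with 289 genes higher in HCC70 alone, and 2502 and 3071 genes at least 1.5-fold above and below in HCC70. At 5 FPKM or above they were 47, 21, 13, 10 and 17, with 25, 920 and 952. At a 2-fold threshold they were 22, 9, 4, 6 and 11, with 11, 513 and 561, and 273 genes were lower and 286 higher in MDA-MB468 alone. With XY018 at 1.25 μM, 45 genes were lower and 29 higher in both lines, 29 were lower in HCC70 and higher in MDA-MB468, 558 were lower in MDA-MB468 alone and 939 lay above in HCC70. Where both counting intervals had to lie off 0, 32 genes were lower in HCC70 and higher in MDA-MB468. Of 82 recomputed counts, 45 stayed within 1.5 times. The median difference of the cholesterol list ran from −0.437 to −0.271, the latter at 1.25 μM. At 1.25 μM the difference turned sign in 8 of 108 named genes, of which FOSL1 (−0.013) was the 1 with lines at least 1.5-fold apart at 2.5 μM. It turned in 1 of 113 with 1 FPKM added and in 4 after rescaling to a median of 0, none of them 1.5-fold apart. Depth limits genes near 1 FPKM, most of all in HCC70. The cause of these changes beyond the number of genes kept was not tested. No paired analysis was possible because each condition has 1 library.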
